A study of Mus musculus with 2 samples.

Results

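The genes described here are 10 heat shock chaperones, chosen by name from the 32285 genes counted in the series: Hspa1a, Hspa1b, Dnajb1, Hsph1, Hspb1, Hsp90aa1, Hspa8, Dnaja1, Hspe1 and Hspd1. All 10 were found in both count matrices. The series compared subcutaneous tumours of mice fed a serine/glycine-free (SG-free) diet with tumours of mice on a control diet, and each diet had 1 single-cell library, made with 10x Genomics chemistry and read for both gene expression and T cell receptor (TCR) sequences. The labels give neither the tumour line, the strain and age of the mice nor the number of animals pooled in a library. With 1 library per diet there was no replicate check of a diet difference and no test of it was made.

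Heat shock chaperones bind unfolded or partly folded proteins and keep them from clumping, and heat shock factor 1 switches on many of their genes through heat shock elements, repeats of the letters GAA and TTC, when proteins are damaged. As background, 5 of the genes are low in resting cells and rise steeply under stress: Hspa1a and Hspa1b, which encode the inducible Hsp70, Dnajb1, its Hsp40 partner, Hsph1, the Hsp110 that exchanges nucleotide on Hsp70, and Hspb1, the small heat shock protein Hsp27. The other 5 are abundant without stress and can rise further: Hsp90aa1, an Hsp90 of the cytosol, Hspa8, the constitutive Hsc70, Dnaja1, another Hsp40, and Hspe1 and Hspd1, the Hsp10 and Hsp60 that form the folding chamber of mitochondria. The names stress-induced and constitutive below stand for these lists, which come from textbook knowledge and not from these data. Hsp90aa1 is itself the stress-inducible form of the cytosolic Hsp90. Its place among the constitutive genes rests only on its level without stress.

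Promoter sequences came from RefSeq (GRCm38.p6), whose table matched 8 of the 10 genes; Hsp90aa1 and Hspa8 had no entry. Hspa1a lies on chromosome 17 at 34969359-34972156 and Hspa1b at 34956429-34959238, both on the minus strand, with 10120 bases between them. The 250 bases before each start are shown because the pair is nearly identical there while its counts, given further on, were not: the 2 windows (chr17:34972157-34972406 and chr17:34959239-34959488) differ at 3 of 250 positions (98.8% identical). Capitals mark a 2-unit heat shock element, GAANNTTC, whose first base is at position -104 in both.
Hspa1a: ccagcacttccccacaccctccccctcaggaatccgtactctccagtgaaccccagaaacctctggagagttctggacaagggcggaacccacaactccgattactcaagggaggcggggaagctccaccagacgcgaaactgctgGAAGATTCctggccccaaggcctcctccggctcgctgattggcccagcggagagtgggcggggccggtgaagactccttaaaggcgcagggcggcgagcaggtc
Hspa1b: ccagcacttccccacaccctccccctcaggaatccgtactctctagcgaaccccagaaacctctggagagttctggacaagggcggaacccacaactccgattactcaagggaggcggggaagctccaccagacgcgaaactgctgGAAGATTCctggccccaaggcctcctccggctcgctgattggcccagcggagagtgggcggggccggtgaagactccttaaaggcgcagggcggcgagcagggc

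Hspd1 and Hspe1 stand head to head on chromosome 1, and the 215 bases between the 2 starts that face each other (chr1:55087933-55088147, written on the plus strand, toward Hspe1) are shown because both genes share them. RefSeq also lists a second Hspd1 start farther upstream. Capitals mark the run of heat shock units there, in which both 3-unit forms (GAA and TTC in turn with any 2 bases between units, starting with either, each the reverse complement of the other) overlap.
Hspd1-Hspe1: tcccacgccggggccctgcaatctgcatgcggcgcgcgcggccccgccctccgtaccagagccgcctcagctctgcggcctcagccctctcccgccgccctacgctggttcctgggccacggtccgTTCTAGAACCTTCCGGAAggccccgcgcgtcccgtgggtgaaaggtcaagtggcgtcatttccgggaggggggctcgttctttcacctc

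Among 32851 promoter windows of 250 upstream bases, 0.466% held a 3-unit form, 6.69% held GAANNTTC and 7.17% held TTCNNGAA; the last 2 read the same on both strands, and each 3-unit form contains one of each. Of the 8 matched genes, only Hspe1 and Hspd1 (in 1 of its 2 windows) had a 3-unit form within 250 bases. Hspb1 had GAANNTTC at 2 positions, -117 and -97, Dnaja1 had it once, Hsph1 had TTCNNGAA once in each of its windows, and the Dnajb1 windows had none of these exact letters. A match describes the letters only.

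Cells were sorted into classes by fixed rules on both libraries. T cells carried a TCR beta (TRB) contig (235 SG-free and 233 control cells), natural killer (NK) cells had at least 1 unique molecule (UMI) of the receptor gene Ncr1 and no contig (144 and 17 cells), and macrophages had at least 0.1% of their UMIs from the complement genes C1qa, C1qb and C1qc and none from Krt20 (628 and 690 cells). Cells with Krt20 and without Ptprc, the gene of the leukocyte antigen CD45, were named tumour cells in the selection rule. They were divided into those with at least 2 UMIs of Car9, a gene induced by low oxygen (866 and 333 Car9-high cells), and those with none (3390 and 3483 Car9-negative cells). The other epithelial genes checked in the Car9-negative cells were at or below 0.738 CPM (UMIs of a gene per 1e6 UMIs of its sum) for Krt8, Krt19, Krt7, Epcam and Lgals4, Krt18 was at 17.7 and 22.5 CPM, and the fibroblast gene Col1a2 was at 421 and 366 CPM. They are therefore called Krt20-positive cells below. The marker sets of T cells, NK cells and macrophages were present in the classes of those names, at a summed 3169 and 2415, 2018 and 1950, and 7811 and 6676 CPM. NK markers were also high in T cells, at 1730 and 916 CPM, and T markers stood at 442 and 479 CPM in NK cells, so these sets do not fully separate the 2 classes.

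The SG-free library held 157234945 UMIs in 7999 cell barcodes and the control library 161332426 in 8466. They shared 104 barcode sequences, of which 0 had a TRB contig in both. Genes of Krt20-positive cells were also counted in the T and NK sums: the 10 abundant genes lowest there relative to Car9-negative cells still stood at a median of 30.3% and 37.9% of that level in T cells and 33.7% and 10.1% in NK cells, but at 4.28% and 4.3% in macrophages. In T cells without a Krt20 UMI and with at most 15000 UMIs (198 SG-free and 210 control cells) the figures were 0.29% and 1.89%, so values of these low-UMI cells are given where they differ from the full sums, a restriction chosen after the data were seen; macrophages were limited in the same way (491 and 560 cells). In bulk sums of this kind, fewer expressing cells and less RNA per cell cannot be told apart. The control NK sum rests on 17 cells, or 9 under that restriction. Intervals are exact 95% intervals and cover counting error only. UMIs count molecules, so levels of different genes were not divided by gene length.

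Hspa1a was highest in macrophages. It had 1858 UMIs (266 CPM) in SG-free macrophages and 1139 UMIs (158 CPM) in control macrophages, against 207 UMIs (2.62 CPM) in SG-free and 146 UMIs (1.61 CPM) in control Car9-negative Krt20-positive cells. T cells lay between, with 60.3 CPM in the SG-free and 28.5 CPM in the control library. NK cells had 13.1 and 3.35 CPM (20 and 1 UMIs), and Car9-high cells had 1.97 and 0.425 CPM. Both macrophage sums were above all 8 others. Low-UMI T cells had more Hspa1a, 118 and 49.7 CPM, and low-UMI NK cells had 28.3 CPM in the SG-free library and 0 UMIs in the 9 control cells. In an edgeR quasi-likelihood fit over the 10 sums (5 classes in 2 libraries, 13446 genes tested), Hspa1a was higher than in Car9-negative cells in macrophages by 6.77 ± 0.18 on the log2 scale (SE, adjusted p = 1.25e-10), in T cells by 4.22 ± 0.21 (adjusted p = 4.22e-08) and in NK cells by 2.03 ± 0.42 (adjusted p = 0.00398). The NK call was lost in edgeR without a library term (adjusted p = 0.0776). With low-UMI immune cells the edgeR differences were 5.13 in T cells (adjusted p = 1.9e-09) and 3.09 in NK cells (adjusted p = 0.000595).

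Its near-identical neighbour Hspa1b did not follow that order. It had 101 CPM (706 UMIs) in SG-free and 33 CPM (238 UMIs) in control macrophages, and 47.2 CPM (3736 UMIs) in SG-free and 29.5 CPM (2677 UMIs) in control Car9-negative cells. T cells had 68.1 and 55.6 CPM, SG-free NK cells had 58.5 CPM, control NK cells had 0 UMIs (exact upper limit 12.4 CPM), and Car9-high cells had 34.6 and 34.8 CPM. The control macrophage value lay within the range of the Krt20-positive sums, while the SG-free one was the highest of all. Low-UMI T cells had 103 and 78.1 CPM of Hspa1b. The macrophage difference from Car9-negative cells, 0.85 ± 0.32 on the log2 scale, passed edgeR's threshold narrowly (adjusted p = 0.0381) and did not pass it with DESeq2 (adjusted p = 0.302) or in edgeR without composition factors (adjusted p = 0.0742), without a library term (adjusted p = 0.164) or with T and NK cells free of Krt20 (adjusted p = 0.0615).

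The share of the pair's UMIs counted as Hspa1a differed by class. It was 72.5% (95% interval 70.7 to 74.2) of 2564 UMIs in SG-free and 82.7% (80.6 to 84.7) of 1377 UMIs in control macrophages. In Car9-negative cells it was 5.25% (4.57 to 5.99) of 3943 UMIs and 5.17% (4.38 to 6.05) of 2823 UMIs, in Car9-high cells 5.41% and 1.2%, in T cells 47% and 33.9%, and in SG-free NK cells 18.3%. Among the low-UMI T cells the share was 53.3% and 38.9%. Reads of the 2 genes may be hard to tell apart, and how the deposited counting treated shared reads is not given in the sources used here, so the size of each share is uncertain; the same counting was applied to every class.

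**Figure D1:**
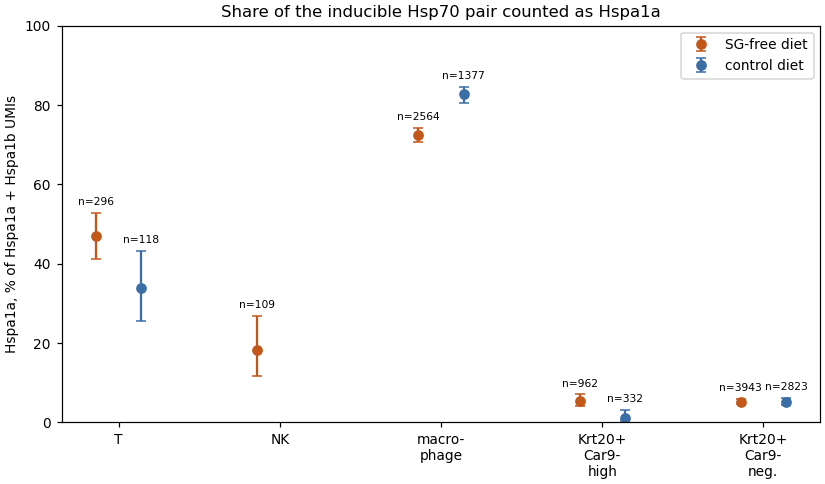
Share of Hspa1a among the UMIs of Hspa1a and Hspa1b (y axis, percent) by cell class (x axis), SG-free library left and control library right within each class, with exact 95% intervals and the number of UMIs above each point. Macrophages sit at 72.5% and 82.7% and Car9-negative Krt20-positive cells at 5.25% and 5.17%; control NK cells, with 1 UMI, are not drawn.

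Hspb1 was close to absent from Krt20-positive cells. Car9-negative cells had 40 UMIs (0.506 CPM) in the SG-free and 26 UMIs (0.286 CPM) in the control library, and Car9-high cells had 32 and 0 UMIs. Macrophages had 137 UMIs (19.6 CPM) and 86 UMIs (11.9 CPM), 5.44 ± 0.44 above Car9-negative cells on the log2 scale (edgeR adjusted p = 7.56e-07). Those UMIs came from few cells, 17 of 628 in the SG-free and 14 of 690 in the control library. Fibroblast markers summed to 789 and 1729 CPM in those cells against 137 and 216 CPM in macrophages without Hspb1, yet only 1 of the 17 and 2 of the 14 cells had any; their part in the Hspb1 level was not tested.

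The partners of Hsp70 ran the other way from Hspa1a. Dnajb1 had 79.2 and 64.3 CPM in SG-free and control macrophages, against 175 and 115 CPM in Car9-negative cells, a difference of -0.87 ± 0.20 on the log2 scale (edgeR adjusted p = 0.00215). Hsph1 had 33.2 and 23.2 CPM in macrophages against 144 and 104 CPM in Car9-negative cells, a difference of -2.01 ± 0.21 (edgeR adjusted p = 5.6e-06). In both genes the 2 macrophage sums lay below all 4 Krt20-positive sums. T cells had 123 and 114 CPM of Dnajb1 and 90.2 and 66.3 CPM of Hsph1; among low-UMI T cells, 99.6 and 78.1 CPM of Dnajb1 and 59.2 and 45.4 CPM of Hsph1.

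Of the constitutive genes, Hspa8 was the most abundant of the 10 in each of the 10 sums. It ranged from 1815 CPM in control T cells to 2589 CPM in SG-free Car9-high cells and made up between 39.7% and 60.5% of the UMIs of the 10 genes in a sum. It did not pass edgeR's threshold in any of the 5 class comparisons. Hsp90aa1 had 325 and 310 CPM in macrophages against 672 and 723 CPM in Car9-negative cells (log2 difference -1.01 ± 0.12, edgeR adjusted p = 1.55e-05). Dnaja1 had 165 and 163 CPM against 292 and 288 CPM (-0.70 ± 0.14, edgeR adjusted p = 0.00103).

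The mitochondrial pair was also highest in Krt20-positive cells. Hspe1 had 401 and 380 CPM in macrophages against 854 and 963 CPM in Car9-negative cells (log2 difference -1.10 ± 0.12, edgeR adjusted p = 1.14e-05), and Hspd1 had 152 and 181 CPM against 442 and 613 CPM (-1.53 ± 0.12, edgeR adjusted p = 6.21e-07). T cells had 603 and 541 CPM of Hspe1 and 295 and 348 CPM of Hspd1, and both genes were lower than in Car9-negative cells, with log2 differences of -0.82 ± 0.12 and -0.85 ± 0.12 (edgeR adjusted p = 0.000355 and 0.000226). Among low-UMI T cells these differences were larger, -1.48 and -1.57.

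**Figure D2:**
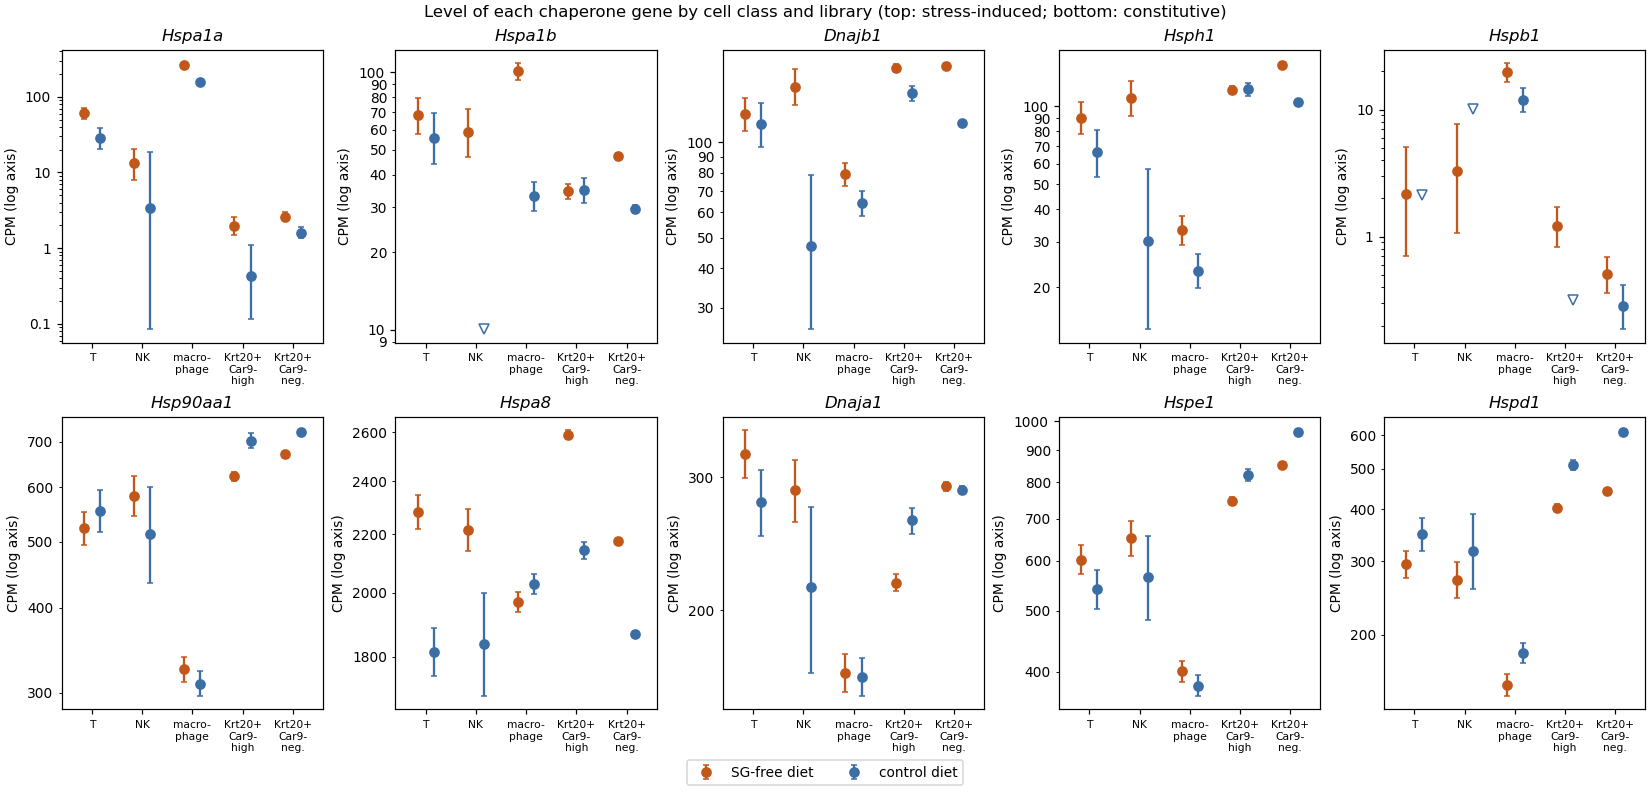
Level of each gene in CPM (y axes, logarithmic, different in each panel) by cell class (x axes), SG-free library left and control library right, with exact 95% counting intervals; open triangles mark the level that 3 UMIs would give where 0 were counted. Hspa1a and Hspb1 are highest in macrophages, while Dnajb1, Hsph1, Hsp90aa1, Dnaja1, Hspe1 and Hspd1 are lower there than in Krt20-positive cells.

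Counted over the 10 genes, macrophages differed from Car9-negative cells in 9: Hspa1a, Hspa1b and Hspb1 were higher (among all genes tested, 32.5% were called higher) and 6 were lower (34.1% of all genes). The median log2 difference of the 10 was -0.78, beside -0.04 over all genes tested. The stress-induced genes thus held both directions, 3 higher and 2 lower, and the constitutive genes 0 higher and 4 lower. In T cells 1 of 10 was higher, Hspa1a (18.6% of all genes were), and 4 were lower, Hsph1, Hsp90aa1, Hspe1 and Hspd1 (24.7% of all genes were). NK cells gave the same 1 and 4 (background 13.8% and 17.3%). With low-UMI immune cells, T cells gave 2 higher, with Hspa1b added at 1.09 (edgeR adjusted p = 0.0158), and 5 lower, with Dnajb1 added at -0.84 (edgeR adjusted p = 0.00129). Low-UMI NK cells gave 1 higher and 5 lower, also with Dnajb1 added, at -1.27 (edgeR adjusted p = 0.000889). Hsph1 lost its call with DESeq2 in T and in NK cells (adjusted p = 0.0751 and 0.0881) and in edgeR without a library term (adjusted p = 0.104 and 0.213). In NK cells Hsph1 and Hsp90aa1 both lost it in edgeR without composition factors (adjusted p = 0.0932 and 0.0712). Both NK calls were also lost in edgeR with T and NK cells free of Krt20 (adjusted p = 0.0986 and 0.059).

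Between Car9-high and Car9-negative Krt20-positive cells, 0 of the 10 genes were called by edgeR (1.11% of all genes were higher and 0.439% lower, 208 genes in all), and 1 of 10, Hspa8, had an unadjusted p under 0.05. The nearest to a call was Hspa8, with 2589 CPM in SG-free and 2144 CPM in control Car9-high cells against 2177 and 1870 CPM in Car9-negative cells, higher in both libraries (log2 difference 0.35 ± 0.10, edgeR adjusted p = 0.107). DESeq2 called it (adjusted p = 0.00389), as did edgeR without the NK sums (adjusted p = 0.0415). Dnajb1 had 172 and 143 CPM in Car9-high against 175 and 115 CPM in Car9-negative cells, and Hspd1 had 402 and 510 CPM against 442 and 613 CPM. Of the 15 endoplasmic reticulum chaperones, 17 co-chaperones and 8 TRiC subunits fixed as lists, 0 were called in this comparison too. NK cells differed from T cells in 1 of 10 genes, Hspa1a, which was lower in NK cells (log2 difference -2.19 ± 0.34, edgeR adjusted p = 0.00617; 0.759% of all genes were called higher and 0.87% lower), with 20 and 1 UMIs in NK cells behind it. The call was lost without a library term (adjusted p = 0.339) and with the stricter cell filter (adjusted p = 0.0529).

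**Figure D3:**
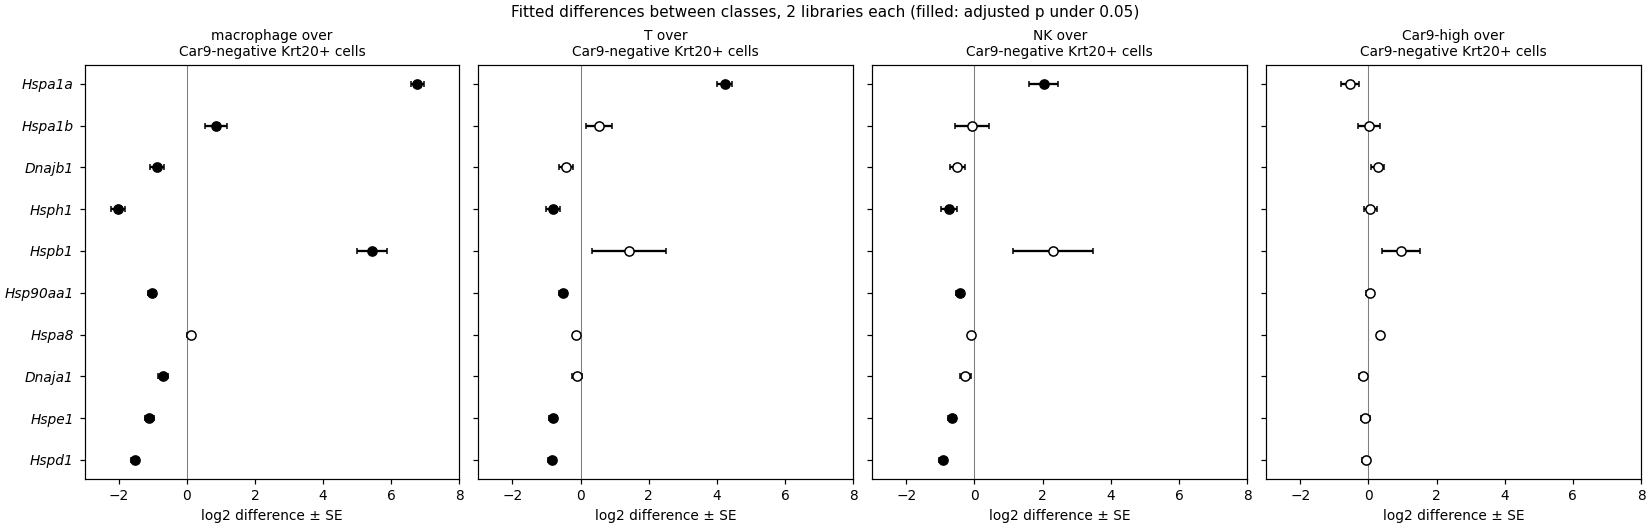
Fitted log2 difference of each gene (x axes, with its SE) from Car9-negative Krt20-positive cells for macrophages, T cells, NK cells and Car9-high cells, from 2 libraries per class. Filled points have an edgeR adjusted p under 0.05: 9 of 10 for macrophages, 5 each for T and NK cells and 0 for Car9-high cells.

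Other chaperone families gave the setting for these values. Among 15 further chaperones of the cytosol, 3 were higher and 8 lower in macrophages than in Car9-negative cells by edgeR, where 32.5% of all genes were called higher and 34.1% lower. The small heat shock genes Hspb8 and Cryab were among the lower ones, with log2 differences of -3.86 ± 0.20 and -3.28 ± 0.16 (edgeR adjusted p = 2.34e-08 and 1.34e-08), opposite in direction to Hspb1. Of the 8 subunits of TRiC, the chaperonin of the cytosol, 7 were lower and 0 higher. Of 15 endoplasmic reticulum chaperones 8 were higher and 1, the collagen chaperone Serpinh1, was lower. Of 11 mitochondrial chaperones and proteases 5 were lower and 0 higher, among them Hspa9, the mitochondrial Hsp70, at -1.64 ± 0.18 (edgeR adjusted p = 1.21e-05). Hsf1, which encodes heat shock factor 1, had 21 and 20 CPM in macrophages against 45.5 and 42.5 CPM in Car9-negative cells. Of 14 immediate-early genes, which cells switch on within minutes of a stimulus, 11 were higher in macrophages and 1 was lower.

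Between the diets, the stress-induced genes were mostly higher in the SG-free library, and the mitochondrial pair was lower in Krt20-positive cells. In Car9-negative cells, 2 of the 3 stress-induced genes that averaged 20 CPM or more were at least 1.5-fold higher on the log2(CPM + 5) scale (Hspa1b, and Dnajb1 at the threshold itself, with an interval of 0.55 to 0.62 in log2) and 0 were lower by as much, where 2.1% of all genes measured were higher and 0.543% lower by that much. Hspa1b had 47.2 CPM in the SG-free and 29.5 CPM in the control library, a ratio of 1.6 (95% interval 1.52 to 1.68). Dnajb1 had 175 CPM in SG-free and 115 CPM in control cells, a ratio of 1.52 (1.48 to 1.56), and Hsph1 had 144 and 104 CPM, a ratio of 1.38 (1.35 to 1.42). The median log2 difference was 0.45 over the 5 stress-induced genes and -0.10 over the 5 constitutive genes, beside -0.08 over all genes measured. The constitutive median is the value of Hsp90aa1 itself. The 5 fibroblast markers summed to 1042 CPM in SG-free and 726 CPM in control Car9-negative cells, and their part in these differences was not tested.

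The constitutive genes differed less and in both directions. Hspd1 had 442 CPM in the SG-free and 613 CPM in the control library (ratio 0.721, 0.711 to 0.73) and Hspe1 had 854 and 963 CPM (0.887, 0.878 to 0.896). Hspa8 had 2177 and 1870 CPM (1.16, 1.16 to 1.17), Hsp90aa1 672 and 723 CPM (0.93) and Dnaja1 292 and 288 CPM (1.01). The order of the ratios placed the cytosolic stress-induced genes at one end and the mitochondrial chaperonin at the other. Hspd1 was below 1 in every class, at 0.789 in Car9-high cells, 0.838 in macrophages, 0.849 in T cells and 0.851 in NK cells, though the NK interval (0.679 to 1.08) and that of low-UMI T cells (0.72 to 1.12) included 1. In low-UMI NK cells the Hspd1 ratio was 0.565 (0.351 to 0.951) on 103 and 21 UMIs.

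In Car9-high cells the diet ratios of Hspa1b and Hsph1 were near 1. Hspa1b had 34.6 and 34.8 CPM in the SG-free and control libraries (ratio 0.992, 0.873 to 1.13) and Hsph1 115 and 116 CPM (0.994, 0.927 to 1.07), while Dnajb1 had 172 and 143 CPM (1.21, 1.14 to 1.28). None of the 3 measured stress-induced genes was 1.5-fold higher or lower, where 1.51% of all genes were higher and 0.719% lower. The other 2 were near 0 but higher in the SG-free library. Hspa1a had 1.97 and 0.425 CPM (52 and 4 UMIs, ratio 4.65, 1.71 to 17.7) and Hspb1 1.22 and 0 CPM (32 and 0 UMIs). The median log2 difference was 0.26 over the 5 stress-induced genes, the value of Dnajb1, and -0.17 over the 5 constitutive genes. Over all genes measured it was -0.07. Dnaja1 was at 0.827 (0.789 to 0.867), Hsp90aa1 at 0.887 and Hspa8 at 1.21. The difference between the 2 Krt20-positive classes in diet ratio was not tested, since each ratio comes from 1 library per diet.

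In macrophages, Hspa1b gave the largest ratio of the 10 genes: 101 CPM in SG-free against 33 CPM in control cells, 3.06-fold (2.63 to 3.55). A minority of macrophages carried it, with an Hspa1b UMI in 23.7% of SG-free and 16.1% of control cells. Among macrophages thinned to 5000 UMIs, the top 5% held 64.2% of the Hspa1b UMIs in the SG-free and 75% in the control library. The counting interval does not cover this spread between cells. Hspa1a had 266 and 158 CPM (1.68, 1.56 to 1.81), Hsph1 33.2 and 23.2 CPM (1.43, 1.17 to 1.76), Hspb1 19.6 and 11.9 CPM (1.64, 1.24 to 2.17) and Dnajb1 79.2 and 64.3 CPM (1.23, 1.09 to 1.4). Hspa1a and Hspa1b were the 2 of 4 measured stress-induced genes past 1.5-fold, where 2.14% of all genes were higher and 1.43% lower by that much. The constitutive genes lay between 0.838 for Hspd1 and 1.05 for Hspe1. Without the larger cells the ratios were 2.85 for Hspa1b and 1.71 for Hspa1a, but 1.18 for Hspb1 (0.795 to 1.77). The 4 red cell genes (haemoglobins) summed to 0 CPM in SG-free and 339 CPM in control macrophages, and 4 of the 4 were at 0 in the SG-free sum. The 5 fibroblast markers summed to 159 and 249 CPM. Their part in the diet ratios was not tested.

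T cells had 60.3 CPM of Hspa1a in the SG-free and 28.5 CPM in the control library (ratio 2.11, 1.48 to 3.09), the only 1 of 4 measured stress-induced genes past 1.5-fold (3.38% of all genes were higher and 5.85% lower). Its ratio in low-UMI T cells was 2.37 (1.62 to 3.54). In T cells the 4 red cell genes summed to 0 CPM in the SG-free library, where 4 of 4 were at 0, and 1023 CPM in the control library, and the 6 macrophage markers to 26.4 and 81.2 CPM. The 6 NK markers summed to 1730 and 916 CPM, and 4 of the 4 measured were at least 1.5-fold higher in the SG-free library. The median T cell had 5697 UMIs in the SG-free and 2705 in the control library. The part of these in the ratio was not tested. An Hspa1a UMI was seen in only 10.6% of SG-free and 9.01% of control T cells. Hspa1b was at 1.23 and Dnajb1 at 1.08, with intervals that included 1. In NK cells, Hspa1b had 89 UMIs against 0 (at least 5.82-fold higher, against a floor of 3 UMIs in the control sum), Dnajb1 149.9 against 46.9 CPM (3.2) and Hsph1 107 against 30.2 CPM (3.55). These are 3 of 3 measured stress-induced genes, but 16.3% of all genes were higher and 12.2% lower by 1.5-fold between the NK sums, which hold 144 and 17 cells. In low-UMI NK cells (111 against 9 cells) Hspa1b was at least 1.96-fold higher (51 against 0 UMIs), Dnajb1 was at 1.92 (0.62 to 9.62) and Hsph1 turned to 0.806 (0.314 to 2.64) on 35 and 5 UMIs. The 5 fibroblast markers summed to 443 CPM in SG-free and 157 CPM in control NK cells, the 3 endothelial markers to 55.9 and 221 CPM and the 6 macrophage markers to 34.2 and 10.05 CPM; their part in the NK ratios was not tested.

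**Figure D4:**
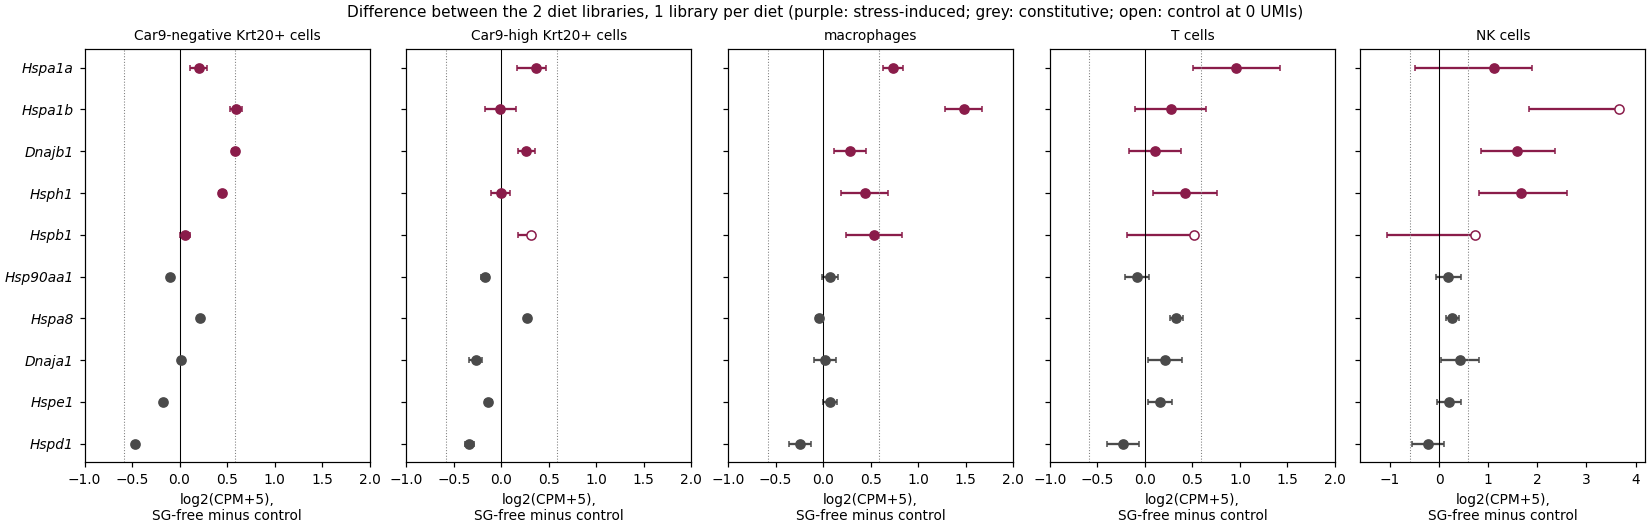
Difference between the SG-free and the control library (x axes, log2 of CPM + 5, SG-free minus control) for each gene in 5 cell classes, with exact 95% counting intervals; dotted lines mark 1.5-fold. In Car9-negative Krt20-positive cells Hspa1b, Dnajb1 and Hsph1 lie between 0.45 and 0.60 and Hspd1 at -0.47, while in Car9-high cells Hspa1b and Hsph1 lie at -0.01.

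Other stress genes differed between the libraries as well. Of the 13 measured immediate-early genes in Car9-negative cells, 13 were above 0 and 7 were at least 1.5-fold higher in the SG-free library, with a median log2 difference of 0.61, where 33.3% of all genes measured were above 0 and 2.1% were 1.5-fold higher. Dusp1, a phosphatase of that group, had 883 and 321 CPM (ratio 2.75) and Zfp36, which speeds mRNA decay, 555 and 228 CPM (2.43). In macrophages 4 of 14 (2.14% of all genes), in Car9-high cells 2 of 13 (1.51%) and in NK cells 12 of 14 (16.3%) immediate-early genes were 1.5-fold higher. T cells showed little of this, with 1 of 14 that much higher (3.38% of all genes). There 9 of 14 were above 0, with a median log2 difference of 0.16 beside -0.04 over all genes measured. The part of the immediate-early genes in the heat shock gene differences was not tested. The co-chaperone gene Fkbp5, a partner of Hsp90 and a known glucocorticoid target, was higher in each class, with 138 and 42.9 CPM (3.21) in Car9-negative cells and 78.6 and 18.3 CPM (4.29) in macrophages.

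Endoplasmic reticulum chaperones were mostly lower in SG-free Krt20-positive cells, where 33.3% of all genes measured were above 0 in Car9-negative and 34.5% in Car9-high cells. Of the 15 endoplasmic reticulum chaperones, 13 were below 0 in Car9-negative cells and 14 of 14 measured were in Car9-high cells. The median log2 differences were -0.30 and -0.36. In NK cells 13 of 15 were below 0 and 9 were at least 1.5-fold lower (12.2% of all genes), with a median of -0.62. The NK sums hold 144 and 17 cells. In macrophages 12 of 15 were below 0, with a median of -0.09 beside -0.10 over all genes measured. T cells went the other way, with 11 of 15 above 0 and a median of 0.08. Hsp90b1, the Hsp90 of that compartment, had 724 and 958 CPM in Car9-negative cells (0.755), and Hspa5, its Hsp70, 544 and 691 CPM (0.787). The mitochondrial list lay near all genes in Car9-negative cells, with 4 of 10 measured above 0 and a median of -0.10, beside -0.08 over all genes. In it, Hspa9 had 316 and 442 CPM (0.715) and the protease Lonp1 58.6 and 84.9 CPM (0.691). All 8 TRiC genes were below 0 in Car9-negative cells, with a median of -0.16 beside the same -0.08. Cryab, a small heat shock gene, went the other way, with 104 and 65.2 CPM (1.6), as did Dnajb4, an Hsp40, with 37.1 and 22.8 CPM (1.63). Hsf1 itself had 45.5 and 42.5 CPM (1.07).

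In Car9-negative cells, Hspa1b, Dnajb1 and Hsph1 were carried less evenly than the constitutive genes, each set beside genes of a like mean. Cells were thinned to 5000 UMIs, which kept 3320 of 3390 SG-free and 3427 of 3483 control Car9-negative cells, and the Fano factor (variance over mean, near 1 for counting noise alone) was set beside the median of genes with a like mean. Hspa1b had a Fano factor of 2.13 in SG-free and 1.85 in control cells (like genes 1.07 and 1.04), Dnajb1 2.52 and 3.88 (1.17 and 1.09) and Hsph1 2.12 and 1.73 (1.15 and 1.09), each above at least 94.3% of its like genes. The constitutive genes lay nearer to theirs: Hspa8 had 2.46 and 2.14 (2.53 and 1.85), Hspe1 2.1 and 1.75 (1.89 and 1.63) Hsp90aa1 1.83 and 1.58 (1.66 and 1.48), Hspd1 1.75 and 1.71 (1.38 and 1.37) and Dnaja1 1.62 and 1.42 (1.31 and 1.19). Hspb1, at 40 and 26 UMIs in all, had 1.57 in SG-free cells and 0.998 in control cells, the control value being equal to that of its like genes. Control cells of 2 other classes did not keep this split clearly. In control Car9-high cells Hspe1 and Dnaja1 exceeded 96% and 94.8% of their like genes, and Hspa1b 98.5%. In control macrophages Dnajb1 exceeded 61.8% and Hsp90aa1 76.6%. In the SG-free library the same classes kept it, with Dnajb1 at 95.8% and 89.6% and Hsp90aa1 at 75.3% and 74.2%.

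At this depth 18.3% of SG-free and 11.1% of control cells had an Hspa1b UMI (39.7% and 33.3% unthinned), 50.5% and 38% a Dnajb1 UMI (84.1% and 79.4% unthinned) and 99.9% and 99.8% an Hspa8 UMI. For Hspd1 the shares were 74.6% and 87.6%, lower in SG-free cells, like its CPM. Hspa1a was seen in 0.633% and 0.73% of these cells (1.8% and 1.92% unthinned), and in 37.8% of SG-free and 36.5% of control macrophages (45.1% and 43.3% unthinned).

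In macrophages the inducible Hsp70 pair also spread more widely than genes of like mean. Hspa1a had a Fano factor of 8.77 in SG-free and 3.16 in control macrophages (like genes 1.33 and 1.13) and Hspa1b 7.26 and 2.83 (1.12 and 1.05). The share of macrophages with a Hspa1a UMI was close between the libraries while the mean differed, 1.42 and 0.84 UMIs per thinned cell. The 2 genes went together over macrophages, with a Pearson correlation of 0.59 over 534 SG-free and 0.35 over 561 control cells. Over Car9-negative cells, where Hspa1a is near 0, the same correlation was 0.05 and 0.04.

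**Figure D5:**
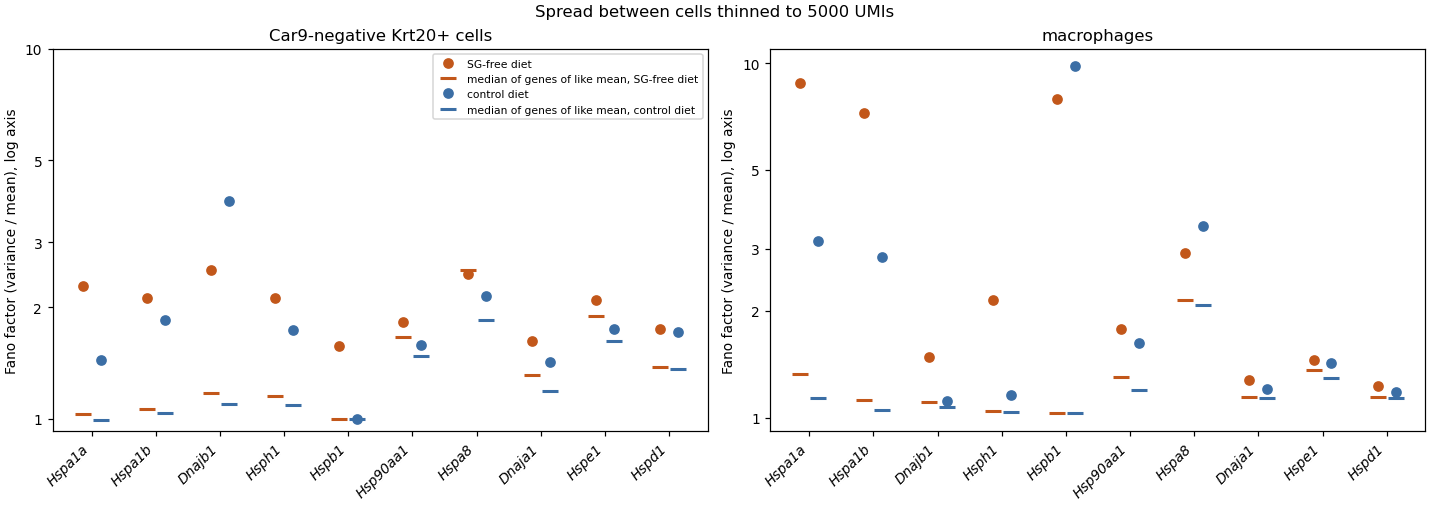
Fano factor of each gene (y axes, logarithmic) in Car9-negative Krt20-positive cells and in macrophages thinned to 5000 UMIs, SG-free library left and control library right; dashes mark the median of genes of like mean. The stress-induced genes Hspa1b, Dnajb1 and Hsph1 lie above their dashes in the left panel, and Hspa1a, Hspa1b and Hspb1 reach between 2.83 and 9.8 in the right one.

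Correlations over cells are given as a description; cells of 1 library share that library's depth and free RNA. In Car9-negative cells the closest pair of the 10 genes was Hspe1 with Hspd1 (r = 0.27 in SG-free and 0.29 in control cells), followed by Dnajb1 with Hsph1 (0.24 and 0.21). Hspd1 was slightly negative with the Hspa1a plus Hspa1b sum (-0.08 and -0.06). Ranked by the lower of the 2 libraries, the 8 genes most like that sum were Dusp1, Ccn1, Fos, Jun, Dnajb1, Phlda1, Klf2 and Jund, with r between 0.13 and 0.19; Hsph1 was at place 20 and Dnaja1 at place 27. The 8 most like Hspd1 plus Hspe1 were Eif5a, Ran, Srm, Ncl, Nme1, Cycs, Hmga1 and Slc25a5, with r between 0.28 and 0.40. Hsp90aa1 was at place 110 there and Hsph1 at place 811. At 2000 UMIs per cell 3 of the first 8 genes stayed among the top 8, and for the second pair 5 of 8 did.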

How the data were processed

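The authors deposited UMI counts per gene and cell barcode, made with Cell Ranger 7.1.0 per the file headers, whereas Cell Ranger 2.2.2, with mm10, stands in the submitters' processing notes. The labels' extraction text speaks of human heart tissue, whereas the other fields name mouse tumours. Cells under 300 genes or over 20% mitochondrial UMIs were dropped, leaving 7913 SG-free and 8262 control cells, and cells meeting more than 1 class rule (11 and 9) were left out. No doublet caller was run.

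Sums of UMIs over the cells of a class in a library were scaled to totals without TCR and immunoglobulin genes (CPM). Diet differences used log2(CPM + 5). Class comparisons used edgeR 4.0.16 quasi-likelihood tests (TMM, filterByExpr, library as a term, 4 residual degrees of freedom, Benjamini-Hochberg adjustment over all genes tested, threshold 0.05). The 2 libraries served as replicates of a class and differ in diet. The p-values measure only how far class differences varied between them after the library term, in 1 estimate shared by the 5 classes. They do not measure spread between animals. Simulated data were checked for the Car9-high over Car9-negative comparison only. There edgeR recovered 47 of 100 genes changed 1.5-fold and 94 of 100 changed 2-fold, with 36 false calls among 13228 genes. False calls thus made up a larger share of the calls than the 0.05 threshold names. Alternatives covered DESeq2 1.42.0, normalization, filters, cell rules, pseudocounts and thinning. The genes and lists were chosen with earlier results of these data known. All 10 genes are named; of each other list, at most 4 genes with the largest absolute log2 value at a mean of at least 20 CPM; and the 8 genes most like each pair.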

Additional observations from a re-analysis of the deposited data

Results flagged for a closer look

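For 3 genes the diet ratio (SG-free over control) lay above 1 in one class and below 1 in another, with counting intervals that excluded 1 in both. Hspa8 was at 1.26 in T cells (1.2 to 1.32) and 0.971 in macrophages (0.948 to 0.994). In the macrophage sums its log2 difference, -0.04, lay above the median of all genes measured there, -0.10. In these full sums the place of Hspa8 below 1 was therefore not a fall relative to most genes. In low-UMI macrophages its log2 difference was -0.14. The median of all genes was not computed for those cells, so the same reading cannot be given for them. Dnaja1 was at 1.34 in NK cells (1.03 to 1.77) and 0.827 in Car9-high Krt20-positive cells (0.789 to 0.867). Hspe1 was at 1.12 in T cells (1.02 to 1.22) and 0.887 in Car9-negative cells (0.878 to 0.896). These differences between classes were not tested, since each diet had 1 library. In low-UMI immune cells the Hspa8 intervals were 1.17 to 1.34 in T cells and 0.878 to 0.934 in macrophages, while the intervals of Hspe1 in T cells (0.982 to 1.36) and Dnaja1 in NK cells (0.7 to 1.78) included 1.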

How the results depend on the processing

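Of 429 alternative calls of the 10 genes between classes, 406 kept their direction and side of the threshold, 15 lost the call and 8 gained one; of 430 alternative diet ratios, 358 stayed within their counting interval, 71 did not and 1 turned direction, Hsph1 in NK cells (log2 -0.29 in low-UMI cells). With the mean of CPM per cell, diet medians were 0.72 for stress-induced genes in T cells, 0.58 for them and -0.053 for constitutive genes in Car9-negative cells, and -0.069 for constitutive genes in NK cells. The constitutive median was -0.15 in T cells without a Krt20 UMI and -0.12 in low-UMI NK cells. With at least 3 Krt20 UMIs the Car9-negative medians were 0.37 (stress-induced) and -0.12 (constitutive).

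The median class difference of the 10 genes in Car9-high cells (0.04) was between -0.00153 and 0.00979 without either library, 0.11 with DESeq2, -0.094 without composition factors, 0.053 without a filter, 0.0065 without a library term, 0.076 with T and NK cells free of Krt20, and 0.066 with low-UMI immune cells or without the NK sums. The 208 genes called there became 565, 644, 876, 6, 129, 361 and 512 under those 7 settings. The T median (-0.28) was between -0.37 and -0.29 without either library, -0.15 with DESeq2 or without the NK sums, -0.13 without composition factors, -0.36 with cells free of Krt20 and -0.50 in low-UMI cells. The NK median (-0.35) was between -0.92 and -0.23 without either library and -1.05 in low-UMI cells. The macrophage median (-0.78) was between -0.77 and -0.74 without either library, -0.71 with DESeq2, -0.91 without composition factors, -0.88 without a filter and -0.93 in low-UMI cells. The 219 genes called between NK and T cells became 685 without a filter and 132 without a library term. At 2000 UMIs per cell, 3 of the 8 genes most like the Hsp70 pair stayed. The causes were not tested. No paired analysis was possible because each diet had 1 library, so no samples pair across diets; the class comparisons held the library as a term, and the values without it are given above.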

Other observations

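T cells whose TCR clonotype was seen in at least 2 cells had less Hspa1a than T cells with a clonotype seen once, in both libraries. In the SG-free library it was at 42.6 CPM in 140 expanded cells and 98.3 CPM in 95 single cells (ratio 0.433, 0.306 to 0.612), and in the control library at 8.96 CPM (3 UMIs) in 49 expanded cells and 34.6 CPM in 184 single cells (0.259, 0.0511 to 0.817). Hspa8 was also lower in both libraries, at 0.918 (0.867 to 0.973) in the SG-free and 0.859 (0.78 to 0.945) in the control library. In the SG-free library Hspa1b (0.609), Hsph1 (0.673), Dnaja1 (0.787) and Hsp90aa1 (0.84) were lower too, with intervals below 1. In the control library Hsp90aa1 was at 1.28 (1.09 to 1.5), and the intervals of Hspa1b, Hsph1 and Dnaja1 included 1. Dnajb1 went in opposite directions, with a ratio of 0.71 (0.556 to 0.91) in the SG-free and 1.67 (1.18 to 2.34) in the control library. All T cells were used, not only low-UMI ones. The intervals count UMIs and are not tests over cells or animals. An Hspa1a UMI was seen in 10.6% of SG-free and 9.01% of control T cells. Among T cells thinned to 1000 UMIs, the top 5% held 95.3% of the Hspa1a UMIs in the SG-free and 100% in the control library. Spread between cells is not covered by the intervals.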
